A study of Mus musculus with 24 samples.

Results

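Cholesterol synthesis, its control by the transcription factor SREBP2, and the handling of cholesterol after uptake were followed through 30 named genes in LSK cells, the lineage-negative, Sca-1-positive, Kit-positive bone marrow fraction that holds blood stem cells and early progenitors. The genes were found by matching gene symbols to the 55414 identifiers of the count tables, and all 30 of 30 were present. They comprise 19 enzymes, 6 genes of SREBP2 control and 5 genes of sterol transport and storage. All 30 passed the filter on low counts, which kept 19616 genes. C57BL/6J mothers received a Western diet, given to make them obese, or regular chow before mating, through pregnancy and through lactation, and cells were taken from their pups on postnatal day 21. The mothers were 4 to 5 weeks old while they settled into the facility before assignment, and each diet ran for 4 weeks ahead of mating. The 4 groups were female pups of Western-diet mothers, female pups of control mothers, male pups of Western-diet mothers and male pups of control mothers, with 6 libraries each. Each group had 2 libraries in each of 3 batches. The labels name no genetic change in any group. They tie no library to a mother or litter, so pups that share a mother cannot be recognised, and the p-values measure the spread between libraries.

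Cholesterol is built from acetyl-CoA through mevalonate, isoprenoid diphosphates, squalene and lanosterol. When sterol in the endoplasmic reticulum is low, SCAP carries SREBP2 to the Golgi, where a pair of proteases releases its active part, which switches on genes of the pathway. When sterol is plentiful, INSIG proteins hold SCAP and SREBP2 in the endoplasmic reticulum. Excess cholesterol is esterified for storage, and cholesterol from taken-up lipoprotein leaves the lysosome through NPC2 and NPC1. Blood-forming progenitors use cholesterol for new membrane as they divide.

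Libraries held 38057263 to 51581968 counts in genes (median 43322552.5). Levels are given as CPM, counts scaled to a common library size corrected by TMM, which assumes most genes do not differ between libraries. The sort markers Kit (258 to 883 CPM) and Ly6a, which encodes Sca-1 (2.0 to 37.7 CPM), were detected in every library, as were the progenitor genes Cd34 (214 to 953 CPM) and Flt3 (90.4 to 520 CPM). Genes of other blood cells were not absent: Adgre1 of macrophages reached 72.7 CPM, while Ly6g of neutrophils stayed at 0.0 to 0.05 CPM. On the first principal component of all genes, the batch 3 libraries of female controls (5 and 6) lay far from the rest, at -90.95 and -72.42. Male control library 1 (-73.44), female Western-diet library 6 (-69.75) and female Western-diet library 5 (-43.96) stood at the low end of the second, with male control library 5 next to them at -40.23.

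In females, squalene synthase Fdft1 was lower and the cholesterol-esterifying enzyme Soat1 higher under a maternal Western diet, and no other of the 30 genes passed the test. In males none passed in edgeR, where 0.0102% of all genes tested did. DESeq2 and limma-voom each called 1 of the 30, Hsd17b7, and they called 100 and 132 of all 19616 genes. Averaged over the sexes, Fdft1 and the isoprenoid isomerase Idi1 were lower and Soat1 higher. The 2 genes called of 30 in females (1 lower, 1 higher) stand against 5.42% of all genes called in that comparison, 3.22% lower and 2.2% higher. The 3 of 30 in the average (2 lower, 1 higher) stand against 5.7% of all genes, 3.51% lower and 2.19% higher, so these counts lie near the background. A gene was called at a Benjamini-Hochberg adjusted p under 0.05 over all 19616 genes in edgeR's quasi-likelihood test with a term for batch.

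Most of the 30 genes had a log2 fold change below 0. In females 22 of 30 were below 0 with a median of -0.19, where 46.4% of all genes were below 0 with a median of 0.03. In males 23 of 30 were below 0 with a median of -0.11, where 46.2% of all genes were below 0 with a median of 0.02. Of the enzymes, 16 of 19 in females and 18 of 19 in males were below 0, with medians of -0.19 and -0.24. At an unadjusted p under 0.05, 5 of 30 genes were lower and 2 higher in females, where 21.3% of all genes passed, 9.54% lower and 11.8% higher. In males 6 were lower and 1 higher, where 8.45% of all genes passed, 5.28% lower and 3.17% higher. In the average 9 were lower, all of them enzymes, and 1 was higher, where 20.6% of all genes passed, 9.49% lower and 11.1% higher. In the average 22 of 30 were below 0, where 45.3% of all genes were. The 30 genes share libraries, and many move together between libraries, so these are not 30 separate observations.

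**Figure D1:**
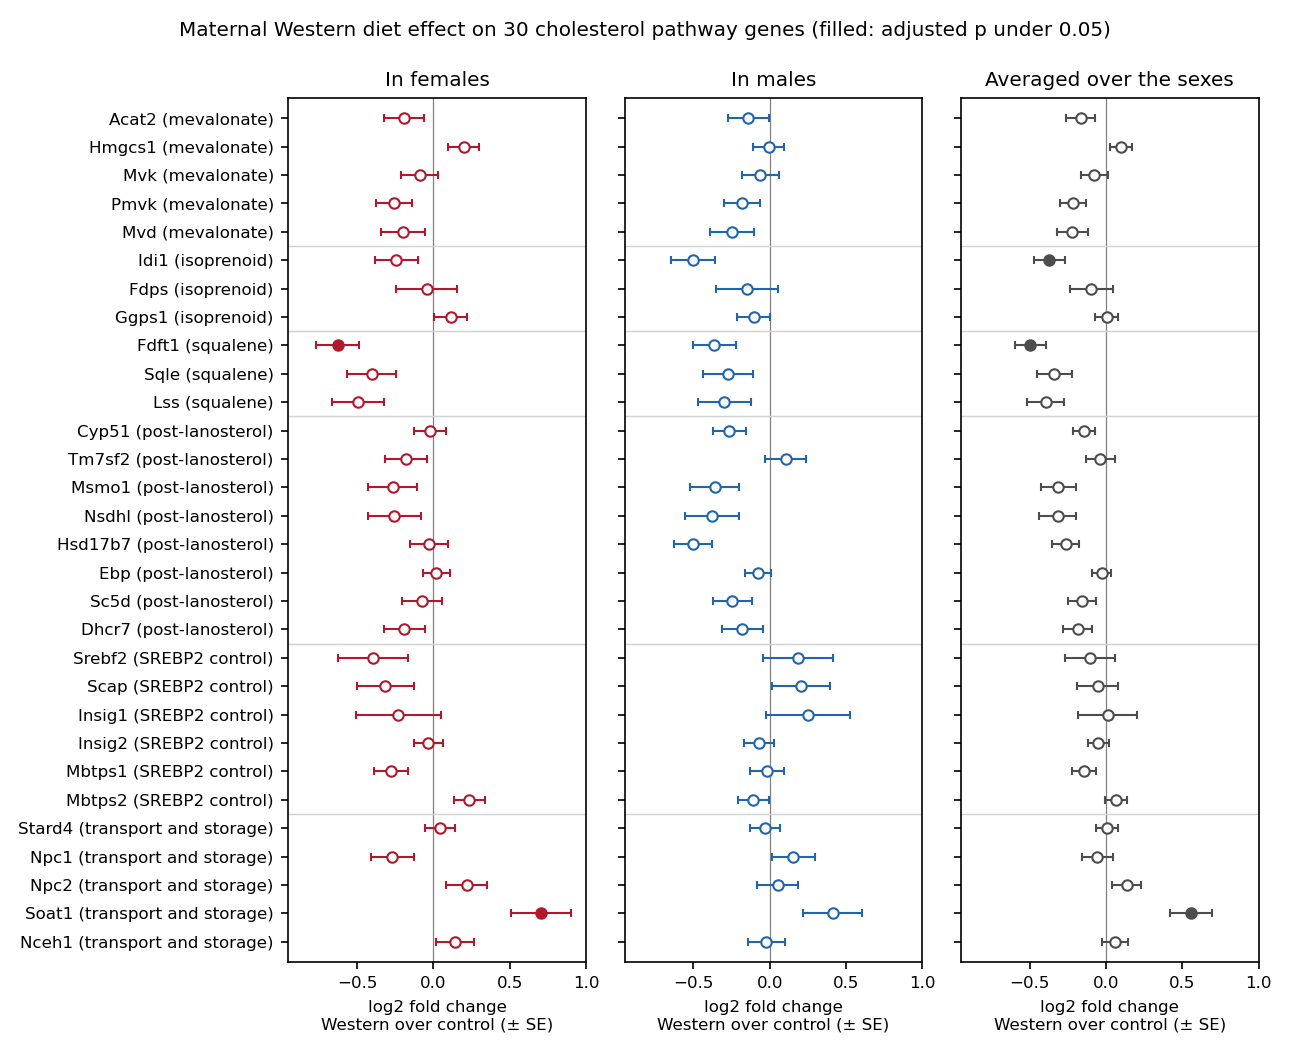
Log2 fold change of Western diet over control (x axis, ± SE) for the 30 genes in pathway order (y axis, role in brackets), in females, in males and averaged over the sexes; filled points have an adjusted p under 0.05. The 3 squalene-stage enzymes lie left of 0 in all 3 panels, with Fdft1 filled in females and in the average, and Soat1 lies farthest to the right.

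Promoter sequence is shown for Idi1, Soat1 and Hsd17b7, 3 of the genes called by diet in at least 1 tool. Hmgcs1 is shown because its window holds a match to a form of the sterol regulatory element. Lss, called in the average by DESeq2, is not shown, and no window was available for Fdft1. The windows hold the 250 bases before each gene's start, read 5′ to 3′ on the gene's strand, from RefSeq on GRCm38.p6. That is an older build than the GRCm39 of the counts, and it was used for sequence alone. Idi1 lies on the plus strand at chr13:8885356-8885605 and Soat1 on the minus strand at chr1:156474329-156474578. Hsd17b7, on the minus strand at chr1:169969206-169969455, and Hmgcs1, on the plus strand at chr13:119690101-119690350, were added after their values and sequences were seen. Capitals mark CCAAT or its complement ATTGG, the E-box CACGTG, and TCACNCCAC, a form of the sterol regulatory element.
Idi1: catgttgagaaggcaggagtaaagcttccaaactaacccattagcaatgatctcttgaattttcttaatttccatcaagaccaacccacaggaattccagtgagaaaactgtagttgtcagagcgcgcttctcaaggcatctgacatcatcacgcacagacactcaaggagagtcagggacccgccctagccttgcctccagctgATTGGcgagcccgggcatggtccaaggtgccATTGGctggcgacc
Soat1: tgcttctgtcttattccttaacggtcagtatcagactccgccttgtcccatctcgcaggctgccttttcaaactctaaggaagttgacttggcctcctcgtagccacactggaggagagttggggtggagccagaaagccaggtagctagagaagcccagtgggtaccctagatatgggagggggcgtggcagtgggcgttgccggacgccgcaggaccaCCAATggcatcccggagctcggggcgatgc
Hsd17b7: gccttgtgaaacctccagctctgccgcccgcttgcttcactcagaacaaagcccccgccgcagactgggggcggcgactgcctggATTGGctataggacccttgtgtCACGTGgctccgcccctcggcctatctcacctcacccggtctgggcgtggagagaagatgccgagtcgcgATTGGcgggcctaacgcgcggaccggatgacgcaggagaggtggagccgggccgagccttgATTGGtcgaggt
Hmgcs1: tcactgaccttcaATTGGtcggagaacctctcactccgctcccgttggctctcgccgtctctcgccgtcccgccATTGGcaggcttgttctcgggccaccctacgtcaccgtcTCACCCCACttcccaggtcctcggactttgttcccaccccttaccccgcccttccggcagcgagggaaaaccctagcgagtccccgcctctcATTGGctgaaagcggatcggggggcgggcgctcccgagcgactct

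CCAAT boxes bind NF-Y, a known partner of SREBP2 at sterol genes. Over windows of 250 bases before to 50 after the start, 25 of the 30 genes matched the sequence table. CCAAT, on either strand, was found in 21 of 25 (84.0%), and in 41.1% of the 27025 genes with a window. CACGTG was found in 6 of 25, and in 8.09% of all genes. TCACNCCAC, on either strand, was found in 1 of 25, that of Hmgcs1, and in 1.44% of all genes. The 3 motifs do not overlap one another in the windows shown. The Idi1 window holds ATTGG at 45 to 41 and at 14 to 10 bases before the start, and the Soat1 window holds CCAAT at 30 to 26 bases before it. A match describes the letters of the window and shows no binding.

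The first 5 enzymes lead to isopentenyl diphosphate: Acat2 joins acetyl-CoA units, Hmgcs1 makes HMG-CoA, and Mvk, Pmvk and Mvd phosphorylate and decarboxylate mevalonate. None was called by diet in either sex as fitted. Their median log2 fold change was -0.19 in females and -0.14 in males. Pmvk had the largest size in females (-0.26, SE 0.12, adjusted p = 0.209, edgeR) and Mvd in males (-0.25, SE 0.14, adjusted p = 0.667, edgeR). Without female Western-diet library 3, the highest of its group, Pmvk was called lower in females (-0.41, adjusted p = 0.0182, edgeR) and in the average (-0.30, adjusted p = 0.00956, edgeR), and it was called in the average with batch 2 left out (-0.36, adjusted p = 0.0211, edgeR). Hmgcs1 was the one member of these 5 above 0 in females. It averaged 39.5 ± 5.98 CPM in female Western-diet libraries and 34.6 ± 5.40 CPM in female control libraries (SD, n = 6 each), a log2 fold change of 0.20 (SE 0.10, adjusted p = 0.262, edgeR). In males its log2 fold change was -0.01 (SE 0.10), with an interval of 2 SE each side from -0.21 to 0.20.

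Idi1 (ENSMUSG00000058258, chromosome 13), which interconverts the isoprenoid building blocks, was lower in the average of the sexes and separated the male groups. Male Western-diet libraries held a lowest, median and highest level of 15.01, 16.9 and 17.7 CPM, against 19.9, 21.5 and 35.5 CPM in male control libraries. All 6 male Western-diet libraries lay below all 6 male controls. Female Western-diet libraries held 13.8, 19.7 and 23.3 CPM, against 17.6, 22.2 and 27.5 CPM in female controls, and the female groups overlapped. The log2 fold change was -0.50 in males (SE 0.14, adjusted p = 0.278, edgeR) and -0.24 in females (SE 0.14, adjusted p = 0.342, edgeR). Averaged over the sexes it was -0.37 (SE 0.10), or 1.29-fold lower, with an adjusted p of 0.0285 in edgeR. Within batches 1, 2 and 3 the differences of mean log2 CPM were -0.86, -0.20 and -0.39 in males and -0.02, -0.58 and -0.12 in females. The averaged call was lost without female control library 3 (adjusted p = 0.0559, edgeR), female control library 6 (0.0665) or male Western-diet library 5 (0.0569). It was also lost with no batch term (0.0587), with batch 1, 2 or 3 left out (0.0712, 0.106 and 0.169), within each batch alone, and without both female control libraries of batch 3 (0.106).

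The other enzymes of isoprenoid supply gave no call. Ggps1, which makes geranylgeranyl diphosphate for protein prenylation and lies off the sterol line, had a log2 fold change of 0.11 in females (SE 0.11) and -0.10 in males (SE 0.11). Fdps, farnesyl diphosphate synthase, had 78 to 189 counts per library, few beside the other 29 genes. It shares its locus on the same strand with an annotated protein-coding gene, so its counts are uncertain. Tm7sf2 and Mbtps2 likewise overlap Vps51 and Yy2 on the same strand. Mvd, Ggps1 and Npc1 overlap a protein-coding gene on the opposite strand, and the library kit does not mark strand. The part of these neighbours in the counts was not tested.

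The 3 enzymes of the squalene stage gave the lowest median of any stage, -0.49 in females, -0.30 in males and -0.40 in the average. Fdft1 (ENSMUSG00000021273, chromosome 14) makes squalene, the first step that commits isoprenoids to sterol. Female Western-diet libraries held a lowest, median and highest Fdft1 level of 15.8, 26.3 and 35.5 CPM, against 28.6, 39.9 and 44.5 CPM in female control libraries. All 6 Western-diet females lay below the female control mean and 3 lay below every female control. In males the levels were 26.5, 29.1 and 31.5 CPM with Western diet and 31.6, 35.4 and 45.7 CPM in controls, and the male groups did not overlap.

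Fdft1 was 1.54-fold lower in females (log2 fold change -0.63, SE 0.14, adjusted p = 0.00972, edgeR). In males its log2 fold change was -0.36 (SE 0.14, adjusted p = 0.472, edgeR), and the male minus female difference of 0.26 (SE 0.20, adjusted p = 0.704, edgeR) gave no call. The averaged log2 fold change was -0.50 (SE 0.10, adjusted p = 0.00344, edgeR). Differences of mean log2 CPM were below 0 in every batch, at -0.22, -1.04 and -0.66 in females and -0.43, -0.19 and -0.47 in males. The call in females was kept in each of 24 fits that left out 1 library. It was lost when batch 2 or batch 3 was left out, when batch was not modelled, when the 2 female groups were fitted alone, within each batch alone, and without both female control libraries of batch 3 (log2 fold change -0.61, adjusted p = 0.113, edgeR).

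Fdft1 overlaps the cathepsin gene Ctsb on the opposite strand, and the library kit does not mark strand, so reads of the shared stretch cannot be told apart. Ctsb averaged 817 ± 375 CPM in female Western-diet libraries and 923 ± 373 CPM in female control libraries (SD, n = 6 each). Its log2 fold change of -0.19 in females (SE 0.18, adjusted p = 0.583, edgeR) gave no call. Its part in the Fdft1 values was not tested.

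Sqle and Lss, the squalene epoxidase and lanosterol synthase that follow, lay below 0 in both sexes without a call as fitted. With no low-count filter both were called lower in females and in the average, and with batch 1 left out both were called in females, at adjusted p of 0.0453 for Sqle and 0.0409 for Lss in edgeR. Lss levels ran from 15.1 to 32.8 CPM (median 24.5) in female Western-diet libraries and from 26.02 to 38.9 CPM (median 37.7) in female controls. In males they ran from 22.1 to 30.9 CPM (median 23.8) with Western diet and from 26.97 to 38.8 CPM (median 29.7) in controls. Groups overlapped in both sexes, with 3 Western-diet females and 4 Western-diet males below every control of their sex.

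The Lss log2 fold change was -0.49 in females (SE 0.17, adjusted p = 0.0935, edgeR), -0.30 in males (SE 0.17, adjusted p = 0.663, edgeR) and -0.40 in the average (SE 0.12, adjusted p = 0.0564, edgeR). Leaving out female Western-diet library 2 moved the female adjusted p to 0.0372. The averaged call appeared without any 1 of 6 libraries: female control 2 (0.0318) or 4 (0.0400), female Western diet 2 (0.0240) or 6 (0.0334), and male Western diet 3 (0.0387) or 4 (0.0418), all adjusted p from edgeR. It also appeared with all libraries in DESeq2 (log2 fold change -0.41, adjusted p = 0.0257) and with a stricter low-count filter (-0.40, adjusted p = 0.0465, edgeR).

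Sqle levels ran from 57.4 to 97.5 CPM (median 89.2) in female Western-diet libraries, against 73.4 to 146 CPM (median 111.5) in female controls. In males they ran from 63.8 to 104.8 CPM (median 83.2) with Western diet, against 79.6 to 148.9 CPM (median 94.2) in controls. All 6 Western-diet females lay below the mean of the female controls, although the groups overlapped. The log2 fold change was -0.40 in females (SE 0.16, adjusted p = 0.146, edgeR) and -0.34 in the average (SE 0.11, adjusted p = 0.0814, edgeR). The averaged call appeared without female control library 2 (0.0395) or male Western-diet library 3 (0.0391).

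**Figure D2:**
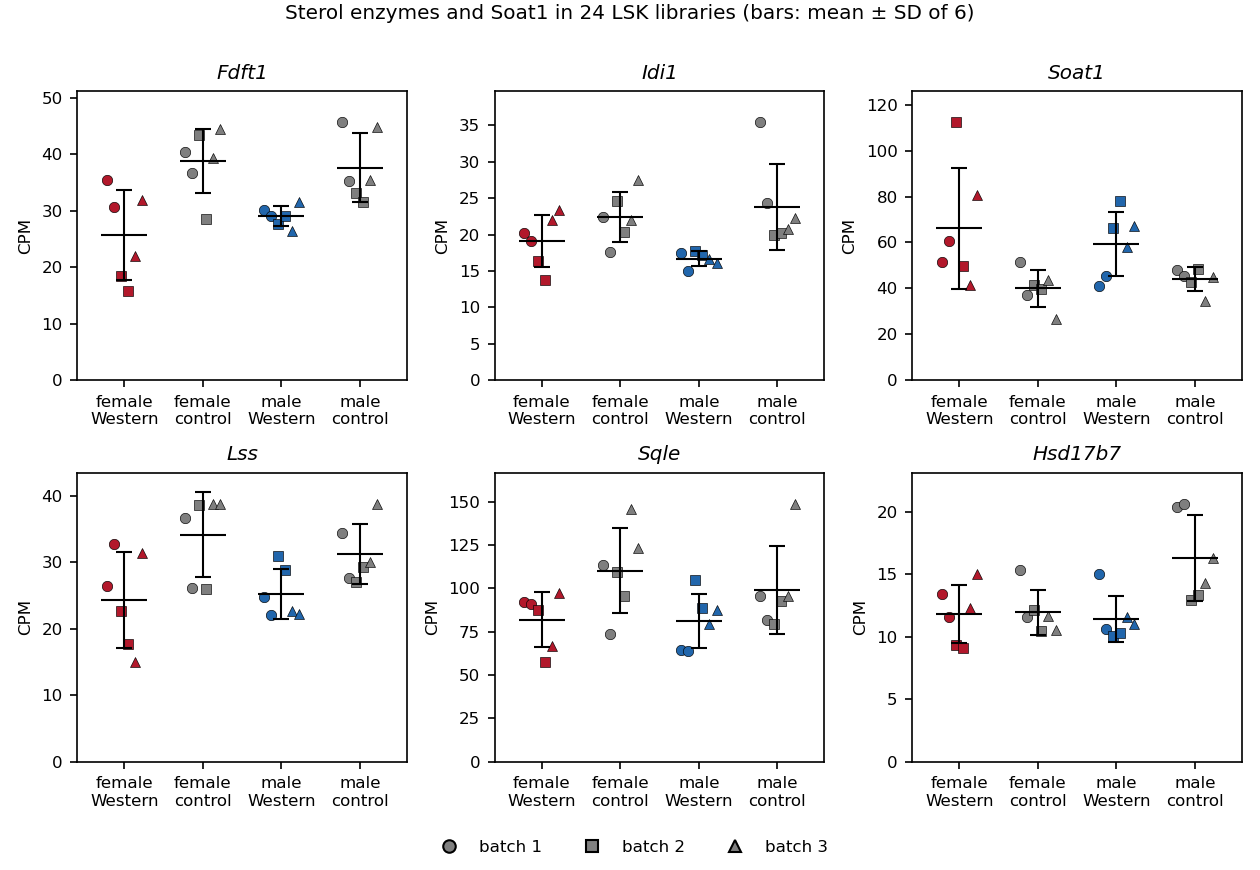
CPM (y axis) of Fdft1, Idi1, Soat1, Lss, Sqle and Hsd17b7 in each of the 24 libraries, by group (x axis), with batch as marker shape and bars for mean ± SD of 6 libraries. Male Western-diet libraries sit below all male controls for Fdft1 and Idi1, while female Fdft1 levels of 15.8 to 35.5 CPM with Western diet overlap those of controls at 28.6 to 44.5 CPM.

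The 8 enzymes that turn lanosterol into cholesterol were all below 0 in the average, with a median log2 fold change of -0.17 and no call as fitted. Cyp51, Msmo1, Nsdhl and Hsd17b7 remove methyl groups from the sterol, Tm7sf2 and Dhcr7 reduce double bonds, Ebp shifts one, and Sc5d adds one. In males 4 of 8 passed an unadjusted p under 0.05, all lower (Hsd17b7, Cyp51, Msmo1 and Nsdhl), where 8.45% of all genes passed and 5.28% were lower. In females none did, where 21.3% of all genes passed and 9.54% were lower. Msmo1 and Nsdhl had male log2 fold changes of -0.36 (SE 0.16) and -0.38 (SE 0.18). Their female values were -0.27 (SE 0.16) and -0.26 (SE 0.17). In each sex 7 of 8 were below 0, the exceptions being Ebp in females (0.02) and Tm7sf2 in males (0.10). Msmo1 was called lower in the average with no low-count filter (adjusted p = 0.0455, edgeR) and without female Western-diet library 6 (0.0411).

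Hsd17b7, the ketosterol reductase of the demethylation complex, had the smallest male p of the 30 genes. Male Western-diet libraries held a lowest, median and highest level of 10.1, 10.8 and 15.1 CPM, against 12.98, 15.3 and 20.7 CPM in male control libraries. Female levels were 9.14, 11.9 and 15.1 CPM with Western diet and 10.5, 11.6 and 15.3 CPM in controls. In males 5 of 6 Western-diet libraries lay below every control, and in females 2 of 6 did.

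The Hsd17b7 log2 fold change was -0.50 in males (SE 0.12, adjusted p = 0.203, edgeR) and -0.03 in females (SE 0.12, adjusted p = 0.937, edgeR). DESeq2 and limma-voom gave male adjusted p of 0.0111 and 0.0289. Within batches the male differences of mean log2 CPM were -0.70, -0.37 and -0.43. The diet effect in males minus that in females was -0.47 (SE 0.18, unadjusted p = 0.0127, adjusted p = 0.589, edgeR), which is no call. In control pups the gene averaged 16.3 ± 3.46 CPM in males and 12.0 ± 1.79 CPM in females (SD, n = 6 each), a log2 fold change of 0.43 (SE 0.12, adjusted p = 0.155, edgeR). In Western-diet pups it averaged 11.4 ± 1.87 CPM in males and 11.8 ± 2.31 CPM in females. The averaged diet effect of -0.26 (SE 0.09, adjusted p = 0.0779, edgeR) passed without female control library 2 (0.0453) or female Western-diet library 6 (0.0315). It also passed with DESeq2 (adjusted p = 0.0177), with limma-voom (0.0337) and with the 3 libraries low on the second principal component left out (0.0376, edgeR).

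Cyp51, lanosterol demethylase, ran from 40.9 to 51.3 CPM (median 46.4) in male Western-diet libraries and from 46.9 to 68.7 CPM (median 52.9) in male controls. In females it ran from 35.2 to 58.5 CPM (median 48.9) with Western diet and from 42.2 to 53.5 CPM (median 47.8) in controls. All 6 Western-diet males lay below the male control mean, and 3 below every male control. The log2 fold change was -0.26 in males (SE 0.11, adjusted p = 0.487, edgeR) and -0.02 in females (SE 0.11, adjusted p = 0.933, edgeR). Cyp51 overlaps Akap9 on the opposite strand, and Akap9 had log2 fold changes of 0.05 in males (SE 0.15) and 0.37 in females (SE 0.15).

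Soat1 (ENSMUSG00000026600, chromosome 1), the endoplasmic reticulum enzyme that esterifies cholesterol for storage, was the one gene of transport and storage that passed. Female Western-diet libraries held a lowest, median and highest level of 41.6, 56.1 and 112.4 CPM, against 26.8, 40.6 and 51.6 CPM in female control libraries. In males the levels were 40.8, 62.2 and 78.0 CPM with Western diet and 34.7, 45.3 and 48.4 CPM in controls. All 6 Western-diet females lay above the female control mean, with 3 above every control, and 4 of 6 Western-diet males lay above every male control. The spread was wider among Western-diet libraries, with an SD of 26.4 CPM in females against 8.13 CPM in female controls, and 14.1 CPM in males against 5.05 CPM in male controls.

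Soat1 was 1.63-fold higher in females (log2 fold change 0.71, SE 0.19, adjusted p = 0.0334, edgeR) and 1.47-fold higher in the average (0.56, SE 0.14, adjusted p = 0.0160, edgeR). In males its log2 fold change was 0.41 (SE 0.19, adjusted p = 0.586, edgeR), and the male minus female difference was -0.29 (SE 0.27, adjusted p = 0.766, edgeR). Within batches the differences of mean log2 CPM were 0.35, 0.88 and 0.76 in females and -0.12, 0.66 and 0.66 in males. The female call was lost in 11 of 24 fits that left out 1 library, at adjusted p up to 0.106. Those were female controls 3, 4, 5 and 6 (0.0755, 0.0838, 0.0510 and 0.106), female Western diet 2, 3 and 6 (0.0566, 0.101 and 0.0809), male control 4 (0.0567) and male Western diet 2, 3 and 6 (0.0504, 0.0565 and 0.0516). The averaged call was kept in all 24 of those fits. It was lost with batch 2 or 3 left out (adjusted p = 0.186 and 0.244, edgeR), within each batch alone, and without both female control libraries of batch 3 (log2 fold change 0.51, adjusted p = 0.0741, edgeR).

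The other carriers gave no call as fitted. Stard4, a cytosolic sterol carrier, had log2 fold changes of 0.04 in females (SE 0.10) and -0.03 in males (SE 0.10), with intervals of 2 SE each side from -0.15 to 0.24 and from -0.23 to 0.16. Npc2, the soluble lysosomal sterol carrier, had 0.22 in females (SE 0.13) and 0.05 in males (SE 0.13). In batch 3 alone, with 2 libraries per group, Npc2 was called higher in females (0.78, adjusted p = 0.0260, edgeR). That fit called 2719 of 19456 genes in females. Nceh1, a cholesteryl ester hydrolase and so the opposite of Soat1 in activity, had 0.14 in females (SE 0.12) and -0.02 in males (SE 0.12).

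Srebf2, which encodes SREBP2, and its escort Scap were not called in any of the 6 comparisons as fitted. Srebf2 held a lowest, median and highest level of 68.6, 162.3 and 271.8 CPM in female Western-diet libraries, against 173.2, 211.6 and 248.1 CPM in female controls. In males it held 184.2, 209.5 and 275 CPM with Western diet and 98.0, 220.8 and 246.2 CPM in controls. The female Western-diet range contained the whole female control range. The log2 fold change was -0.39 in females (SE 0.23, adjusted p = 0.342, edgeR) and 0.19 in males (SE 0.23, adjusted p = 0.844, edgeR). Srebf2 was called lower in females with no low-count filter (-0.41, adjusted p = 0.0375, edgeR), with batch 1 left out (-0.85, adjusted p = 0.0113, edgeR) and in batch 3 alone (-1.13, adjusted p = 0.0267, edgeR). In females those fits called 2023 of 37858, 1839 of 19657 and 2719 of 19456 genes. With batch 1 left out Srebf2 was also called higher in male than in female Western-diet pups (0.97, adjusted p = 0.0243, edgeR), where 123 of 19657 genes were called.

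Scap ran from 38.6 to 95.6 CPM (median 64.9) in female Western-diet libraries and from 67.9 to 90.5 CPM (median 74.2) in female controls. In males it ran from 55.5 to 82.7 CPM (median 74.8) with Western diet and from 28.3 to 76.9 CPM (median 70.4) in controls. The widest ranges were those of the Western-diet females and control males. The log2 fold change was -0.31 in females (SE 0.19, adjusted p = 0.359, edgeR) and 0.21 in males (SE 0.19), and the male minus female difference of 0.52 (SE 0.27, adjusted p = 0.608, edgeR) was not called. In batch 3 alone, with 2 libraries per group, Scap was called lower in females (-1.04, adjusted p = 0.0163, edgeR). That fit called 2719 of 19456 genes in females.

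Insig1, itself an SREBP2 target whose product retains SCAP, ran from 14.1 to 63.8 CPM (median 33.98) in female Western-diet libraries and from 29.7 to 55.5 CPM (median 36.1) in female controls. In males it ran from 29.9 to 49.9 CPM (median 42.3) with Western diet and from 16.7 to 52.8 CPM (median 34.6) in controls. Its log2 fold change was -0.23 in females (SE 0.28, adjusted p = 0.698, edgeR) and 0.25 in males (SE 0.27, adjusted p = 0.823, edgeR). Npc1, the lysosomal membrane sterol exporter, ran from 10.9 to 27.6 CPM (median 20.5) in female Western-diet libraries and from 19.04 to 25.5 CPM (median 23.5) in female controls. In males it ran from 18.9 to 30.6 CPM (median 21.7) with Western diet and from 16.7 to 25.3 CPM (median 20.1) in controls. Its log2 fold change was -0.27 in females (SE 0.14, adjusted p = 0.284, edgeR) and 0.15 in males (SE 0.14), and the difference of 0.42 (SE 0.20, adjusted p = 0.596, edgeR) was not called. Npc1 was called lower in females with batch 1 left out (-0.59, adjusted p = 0.0168, edgeR) and in batch 3 alone (-0.83, adjusted p = 0.0228, edgeR). In females those fits called 1839 of 19657 and 2719 of 19456 genes.

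The same 4 libraries held the 4 lowest levels of Srebf2, Scap and Insig1: female Western-diet libraries 5 and 6 and male control libraries 1 and 5. For Srebf2 these were 68.6 and 99.6 CPM in the Western-diet females and 98.0 and 142.9 CPM in the control males. All 4 stood at the low end of the second principal component of all genes. Female Western-diet libraries 5 and 6 were both of batch 3, and the female within-batch differences of mean log2 CPM for batches 1, 2 and 3 were 0.22, -0.52 and -1.14 for Srebf2, -0.15, 0.11 and -1.02 for Scap, 0.27, 0.07 and -1.28 for Insig1, and 0.20, -0.30 and -0.81 for Npc1. With female Western-diet libraries 5 and 6 and male control library 1 left out, a choice made after the data were seen, the female log2 fold change was -0.10 for Srebf2, -0.03 for Scap, 0.14 for Insig1 and -0.03 for Npc1. Female Western-diet libraries 5 and 6 held the lowest levels of these 4 genes in their group, so the rise of the female values came with the choice. That fit also held no Western-diet female of batch 3. In the same fit Fdft1 was at -0.62 (adjusted p = 0.0467, edgeR) and Soat1 at 0.73 (adjusted p = 0.0624, edgeR).

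**Figure D3:**
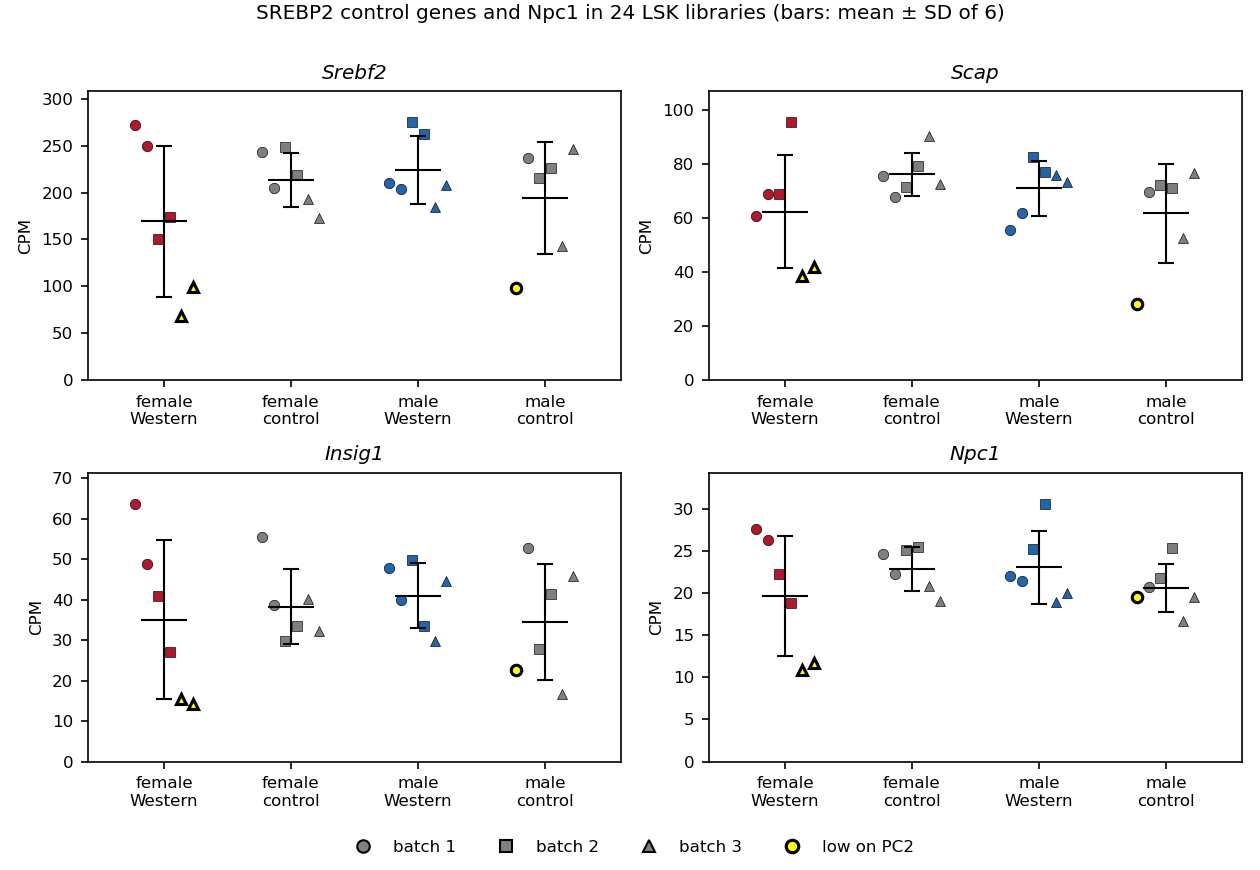
CPM (y axis) of Srebf2, Scap, Insig1 and Npc1 in each of the 24 libraries, by group (x axis), with batch as marker shape, bars for mean ± SD of 6 libraries, and yellow markers for the 3 libraries at the low end of the second principal component. The yellow markers are the lowest of their group for Srebf2 and Scap, at 68.6 to 99.6 CPM and 28.3 to 41.7 CPM.

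Insig2, the second retention gene, differed little between groups. It ran from 21.3 to 31.2 CPM (median 22.5) in female Western-diet libraries and from 22.7 to 28.5 CPM (median 24.96) in female controls. In males it ran from 21.3 to 27.4 CPM (median 23.02) with Western diet and from 22.7 to 27.9 CPM (median 24.9) in controls. The groups overlapped, and the log2 fold change was -0.03 in females (interval of 2 SE each side -0.23 to 0.16) and -0.07 in males (-0.27 to 0.12).

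The proteases that cut SREBP2 had opposite signs in females, without a call for either. Mbtps1, the first to cut, had a log2 fold change of -0.28 in females (SE 0.11, adjusted p = 0.152, edgeR) and -0.02 in males (SE 0.11). Mbtps2, the X-linked second protease, ran from 26.2 to 36.9 CPM (median 27.9) in female Western-diet libraries and from 20.9 to 28.4 CPM (median 25.7) in female controls. In males it ran from 23.2 to 33.2 CPM (median 25.8) with Western diet and from 23.3 to 36.8 CPM (median 29.1) in controls. All 6 Western-diet females lay above the female control mean. The log2 fold change was 0.24 in females (SE 0.10, adjusted p = 0.179, edgeR) and -0.11 in males (SE 0.10), with a male minus female difference of -0.34 (SE 0.14, adjusted p = 0.589, edgeR).

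No gene of the 30 was called for a difference of the diet effect between the sexes, nor were any of the other genes in edgeR (0.0%; 4 genes in DESeq2), while 3 of 30 and 8.32% of all genes passed an unadjusted p under 0.05 (Hsd17b7, Mbtps2 and Npc1). For sex in control pups 0.112% of all genes were called and none of the 30, with Hsd17b7 and Mbtps2 at an unadjusted p under 0.05, where 13.2% of all genes passed. For sex in Western-diet pups 0.0816% were called and none of the 30, with none at an unadjusted p under 0.05, where 6.75% of all genes passed. In males Fdft1 and Idi1, 2 of 30, did not overlap between diets and were lower, where 0.5% of all genes did not overlap and 0.291% were lower. In females no gene of the 30 separated the diets, where 1.18% of all genes did, and none separated the sexes, where 0.265% did in control pups and 0.194% in Western-diet pups.

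After group and batch were removed from log2 CPM, the enzymes varied together between libraries. Over the 171 pairs of enzymes the median Pearson r was 0.40 and the median Spearman rho 0.39 across 24 libraries, and over pairs of all genes the median Pearson r was near 0. The 8 post-lanosterol enzymes had a median r of 0.45. Stard4, which is no enzyme, had the highest median r with the enzymes of all 30 genes (0.63), followed by Fdft1 (0.61) and Sc5d (0.58). The median r with the enzymes was 0.05 for Srebf2, -0.11 for Insig1 and -0.24 for Scap, and 0.09 for the enzyme Pmvk. Single enzymes differed in sign. Srebf2 had r of 0.49 with Sqle, 0.42 with Lss and -0.64 with Ebp, and Insig1 0.55 with Sqle and -0.80 with Ebp. Srebf2, Scap and Insig1, picked after their values were seen, had a median r of 0.81 with one another. It was 0.43 with the 3 low libraries of the second component left out. Npc1 had r of 0.80 with Srebf2, 0.73 with Insig1 and 0.57 with Scap. The pairs share libraries, depth and scaling, so these are descriptions without a test.

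**Figure D4:**
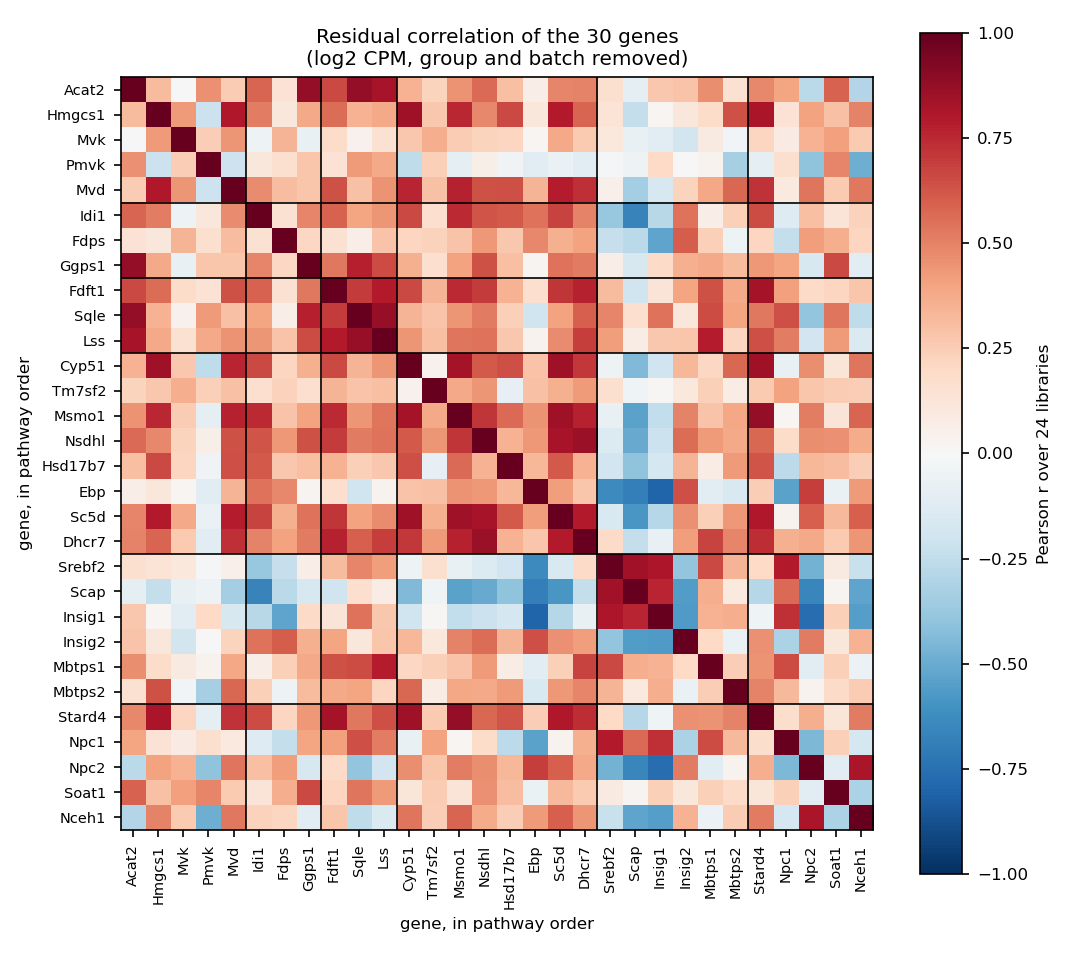
Pearson r over 24 libraries between each pair of the 30 genes (both axes, pathway order, lines between roles), on log2 CPM with group and batch removed. Red blocks join most enzymes with Stard4, and a separate red block joins Srebf2, Scap and Insig1 (median r 0.81). Npc1, farther along the axes, had r of 0.80 with Srebf2, 0.73 with Insig1 and 0.57 with Scap.

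Genes of red cell formation moved with diet beside the enzymes. Of 10 erythroid progenitor genes, 9 were called lower in females, 1 in males and 9 in the average, and of 9 mature erythroid markers 4, 0 and 7. At an unadjusted p under 0.05, 9 of 10 progenitor genes were lower in females (median log2 fold change of the list -1.19) and 8 of 10 in males (-0.58). Of the mature markers 5 of 9 were lower in females (median -0.89) and 9 of 9 in males (-1.24), where 9.54% of all genes were lower in females and 5.28% in males. Summed erythroid progenitor levels ran from 2240 to 6460 CPM in female Western-diet libraries and from 4860 to 12200 CPM in female controls, and from 2950 to 5080 CPM in male Western-diet libraries and from 4090 to 9990 CPM in male controls. Summed mature erythroid levels ran from 702 to 2940 CPM in female Western-diet libraries and from 1310 to 8590 CPM in female controls, and from 982 to 3300 CPM in male Western-diet libraries and from 2560 to 7190 CPM in male controls. No mature or progenitor gene of these lists was at 0 throughout a group. In bulk RNA, fewer cells of a type and less RNA per cell cannot be told apart. The part of these cells in the lower enzyme levels was not tested. Of 10 B cell markers 3 were called higher in females and 2 in the average. Of 6 mast cell and basophil markers 1 was called higher in the average, and of 9 LSK markers 1 in females. Over all genes 2.2% were called higher in females and 2.19% in the average. At an unadjusted p under 0.05 in females, 6 of 10 B cell markers were higher, where 11.8% of all genes were. So were 1 of 6 mast cell and basophil markers and 5 of 9 LSK markers. The median log2 fold change of the B cell list was 0.50 in females and -0.03 in males. Of 10 macrophage, 7 neutrophil, and 8 T and NK cell markers tested none was called for diet. At an unadjusted p under 0.05 in the average 2, 0 and 1 passed, where 20.6% of all genes did. In females 0, 0 and 0 passed, where 21.3% of all genes did. In males 2, 0 and 3 passed, all lower, where 8.45% of all genes passed and 5.28% were lower. All 8 T and NK cell markers were below 0 in males, with a median log2 fold change of -0.61.

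Genes of neighbouring pathways were followed in lists. Of 9 genes of sterol sensing and enzyme turnover, Rnf139, a sterol-responsive ubiquitin ligase of the endoplasmic reticulum, was lower in females (log2 fold change -0.49, SE 0.13, adjusted p = 0.0317, edgeR) and in the average (-0.37, SE 0.09, adjusted p = 0.0202, edgeR). At an unadjusted p under 0.05, 3 of the 9 passed in females, all lower, where 21.3% of all genes passed and 9.54% were lower. None of 11 genes of the isoprenoid branch and none of 12 sterol transport proteins were called by diet. At an unadjusted p under 0.05 in females 1 and 4 passed, where 21.3% of all genes did. Of 11 genes of SREBP1 and fatty acid synthesis, the desaturases Scd1 (0.52, SE 0.15, adjusted p = 0.0438, edgeR) and Scd2 (0.52, SE 0.10, adjusted p = 0.00249, edgeR) were higher in the average and none was called in females or males. At an unadjusted p under 0.05, 8 of these 11 passed in females (5 higher, 3 lower), 2 in males (both higher) and 6 in the average (4 higher, 2 lower). Over all genes 21.3% passed in females, 8.45% in males and 20.6% in the average. Of 16 G1/S genes, Cdc6, which loads the replicative helicase, was lower in females (-0.57, SE 0.14, adjusted p = 0.0136, edgeR), and Cdc6 and the histone mRNA binding gene Slbp in the average. At an unadjusted p under 0.05, 12 of the 16 were lower in the average, where 9.49% of all genes were. In females 6 of 16 were lower and in males 6 of 16, where 9.54% and 5.28% of all genes were. None of the 16 was higher in these comparisons. All 16 were below 0 in the average and in males and 14 of 16 in females, with medians of -0.16, -0.21 and -0.14. Summed G1/S levels ran from 5800 to 6930 CPM in female Western-diet libraries and from 6040 to 8590 CPM in female controls, and from 5970 to 6670 CPM in male Western-diet libraries and from 6500 to 8620 CPM in male controls. The part of these genes' change in the enzyme levels was not tested.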

How the data were processed

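PolyA RNA of sorted LSK cells was sequenced from 24 libraries, grouped by sex and maternal diet as the labels give them. The values the authors deposited are unnormalized counts for each gene of a library. FastQC, cutadapt, STAR, HTSeq, DESeq2 and GRCm39 are listed per the submitters' processing notes. For versions, annotation release and strand setting the sources used here give nothing. Of 55414 identifiers 52081 matched a symbol in an annotation of an older build, used for names, chromosomes and overlaps only. The summary lines at the end of each file (reads without a gene) made up 31.0 to 39.3% of the total and were left out. No pair of the 276 library pairs agreed within sampling noise (lowest chi-square per degree of freedom 17.2).

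Counts were filtered with filterByExpr, scaled by TMM (factors 0.932 to 1.05) and fitted in edgeR 4.0.16 (R 4.3.3) by robust quasi-likelihood over all 24 libraries with group and batch terms, giving 6 comparisons: diet in females, in males and averaged, its male minus female difference, and male over female in each diet. P-values are two-sided, adjusted by Benjamini-Hochberg. Per-library levels are TMM-scaled CPM, and correlations used log2 CPM with a prior count of 2. The fit was tested on simulated data. Alternatives were RLE scaling, no and a stricter filter (1 CPM in 6 libraries), DESeq2 1.42.0, limma 3.58.1 voom with quality weights, other model terms, and batches or libraries left out. Genes given per library were those called in any comparison, the 4 with the smallest p for diet in females, in males and for their difference, and Srebf2, Scap, Insig1 and Insig2. The genes and lists were chosen with earlier results of these data known.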

Additional observations from a re-analysis of the deposited data

Results flagged for a closer look

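Within groups of 6 libraries, 9 of 120 gene and group combinations had a highest or lowest library set apart from the rest by a gap beyond Dixon's critical value, and chance alone flags about 1 in 20 groups. Male control library 1 was the highest of its group for Idi1 (35.45 CPM), Nsdhl (53.85 CPM) and Sc5d (51.57 CPM). Male control library 6 was the highest for Sqle (148.9 CPM), and male control library 5 the lowest for Soat1 (34.65 CPM). Male Western-diet library 1 was the highest for Hsd17b7 (15.08 CPM). Among Western-diet females, library 3 was the highest for Pmvk (64.75 CPM), library 6 the highest for Fdps (4.523 CPM), and library 5 the lowest for Mbtps1 (67.01 CPM).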

How the results depend on the processing

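Counts of genes called moved under many of the alternatives, and the cause was not tested. For the 30 genes, females gave 5 calls with no low-count filter, 6 with batch 1 left out and 4 in batch 3 alone. In females those settings called 2023 of 37858, 1839 of 19657 and 2719 of 19456 genes tested. Females gave 1 with the replicate block (827 of 19616 genes) and 1 without the 3 libraries low on the second component (390 of 20108). They gave 0 with no batch term, with the 2 groups alone, with batch 2 or 3 left out, in batch 1 or 2 alone, and without both female controls of batch 3. Males gave 1 with DESeq2 (100 of 19616 genes) and 1 with voom (132 of 19616). The average gave 6 with no filter (1693 of 37858 genes) and 5 with DESeq2 (1781 of 19616). It gave 1 without both female controls of batch 3 (447 of 20172), and 0 with batch 3 left out and in batch 1, 2 or 3 alone. Sex in control pups gave 1 with DESeq2 (279 of 19616 genes), and sex in Western-diet pups 1 with batch 1 left out (123 of 19657). With 1 library left out, the calls among the 30 ran from 1 to 2 in females, from 2 to 6 in the average and 0 to 0 in the other 4 comparisons. In the average there were 6 without female control 2 (1464 of 19828 genes) or female Western diet 6 (1169 of 19842). There were 5 without male Western diet 3 (1054 of 19819).

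Over all genes, females gave 2023 calls with no filter, 1776 with DESeq2, 404 with no batch term, 358 with the 2 groups alone, 1839, 297 and 146 with batch 1, 2 or 3 left out, 0, 22 and 2719 in batch 1, 2 or 3 alone, 154 without both female controls of batch 3 and 390 without the 3 low libraries. Males, with 2 calls, gave 380 with no filter, 10 with the stricter filter, 100 with DESeq2, 132 with voom, 7 without the 3 low libraries, 1 with the replicate block, the 2 groups alone, or batch 1 or 2 left out, and 0 with no batch term, batch 3 left out and in each batch alone. The average gave 1693 with no filter, 1781 with DESeq2, 466 with no batch term, 556 and 143 with batch 2 or 3 left out, 0, 1 and 1781 in batch 1, 2 or 3 alone and 447 without both female controls of batch 3. The sex difference of the diet effect gave 0 at first and 1633 genes at an unadjusted p under 0.05, 572 with no filter, 4 with DESeq2 and 1 each in batch 1 and batch 3 alone.

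Sex in control pups gave 1296 with no filter, 279 with DESeq2, 132 with voom, 8 with no batch term, 13 with the replicate block, 111 with the 2 groups alone, 7 and 9 with batch 2 or 3 left out, 10, 6 and 8 in batch 1, 2 or 3 alone and 9 without both female controls of batch 3. Sex in Western-diet pups gave 283 with no filter, 36 with DESeq2, 10 with no batch term, 9 with the 2 groups alone, 123 with batch 1 left out and 7 in batch 1 alone. With 1 library left out, calls over all genes ran from 504 to 1386 in females, 1 to 13 in males, 716 to 1464 in the average, 0 to 0 for the sex difference, 13 to 107 for sex in control pups and 10 to 23 for sex in Western-diet pups.

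Replicate numbers gave no pairing of the samples beyond batch, which same-numbered libraries share. With group means removed, their deviations correlated at -0.03 to 0.35 in females, with 2 of 6 best with their own number. In males the range was 0.02 to 0.30, with 3 of 6. With batch means removed too, the ranges were -0.39 to 0.06 in females and -0.26 to 0.17 in males, with 0 of 6 in each. In females the block left Fdft1 called and Soat1 not. Fdft1 was called in 32 of 40 alternatives in females and 35 of 39 in the average, Soat1 in 19 of 40 and 33 of 39, and Idi1 in 28 of 39 in the average, none with a change of sign. Libraries held 38057263 or more counts; what depth limits was not tested, and Fdps had the fewest counts of the 30 genes.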
